A study of Mus musculus with 8 samples.

Results

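Grp, Nmb, Grpr, Nmbr, and Brs3 encode the bombesin-like peptides of the mouse and their receptors. They were found as the probes whose RefSeq accession maps to one of these genes, which gave 6 probes for 5 of the 20284 named genes on the array, 2 of them for Nmb and 1 for each of the other genes. All 5 genes were followed across the arcuate nucleus (Arc), the ventromedial hypothalamus (VMH), the dorsomedial hypothalamus (DMH), and the lateral hypothalamus (LH).

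Gastrin-releasing peptide (GRP) and neuromedin B (NMB) are the mammalian relatives of bombesin, an amphibian skin peptide, and act as neuropeptides in satiety, itch, breathing, and body temperature. The GRP receptor (Grpr), the NMB receptor (Nmbr), and bombesin receptor subtype 3 (Brs3) are G protein-coupled receptors that act mainly through Gq and phospholipase C. Grpr prefers GRP and Nmbr prefers NMB, whereas Brs3 binds either peptide poorly, is regarded as an orphan receptor, and gives rise to obesity when it is deleted in mice.

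The study asked which genes are expressed selectively in each nucleus, with the DMH of most interest. The 4 groups were the Arc, VMH, DMH, and LH of untreated wild-type C57BL/6 females (C57BL/6J in the methods) at 3 months of age, cut out by laser microdissection, with 2 samples for each nucleus. All 4 groups share the strain, sex, age, whole transcriptome amplification, and 1-color hybridization on 1 slide of 8 arrays. The tissue came from 2 mice, and the labels do not tell which arrays share a mouse, so that p-values measure only the spread between these samples.

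Values are scaled signals, that is, the intensity of a probe after division by the 75th percentile over the probes of the same array. A probe was well above background where the scanner software marked it so, and the lowest scaled signal with that mark lay between 79.3 and 132 on the 8 arrays. Differences were tested with limma on log2 signals over 28896 probes, with p-values adjusted over all of them by the method of Benjamini and Hochberg and a threshold of 0.05. In tissue samples, fewer cells of a type and less RNA per cell cannot be told apart.

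Marker sums take the brightest probe of each gene. The summed markers of the Arc, VMH, DMH, and LH were each highest in their own nucleus. Of the markers of the LH, Hcrt and Pmch but not Pvalb were also high in the DMH, where the sum of all 3 was 63344 to 72623 against 129476 to 141151 in the LH. Pvalb, by A_55_P2114437, was 430 and 429 in the DMH against 5855 and 7396 in the LH. Markers of the DMH (Npvf, Prdm13, Skor1, and Gpr50) summed to 943 on LH1 and 328 on LH2, against 9117 to 9399 in the DMH. The same sum was 966 to 1132 in the Arc, where Gpr50 made up 814 to 927 of it, and 276 to 625 in the VMH. Oligodendrocyte markers summed to 97244 to 102585 in the LH and to 10926 to 37412 in the other nuclei, and 0 of 3 anterior pituitary markers (Gh, Prl, and Tshb) were well above background on any array. Some markers of neighboring nuclei differed within pairs, with Oxt at 6559 on Arc1 and 848 on Arc2 and at 109 on LH1 and 8332 on LH2, and Avp at 279 on LH1 and 2432 on LH2. Others were closer, with Crh at 4931 and 3623 in the LH and 2026 and 2543 in the DMH. Otp was 1896 and 1845 in the Arc, and Lhx1 was 608 and 657 in the LH. The arrays of the LH had the lowest correlation between replicates across the tested probes, at 0.938, against 0.971 to 0.981 in the other nuclei.

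All 6 probes entered the tests, that of Grp only through the DMH and that of Nmbr only through the VMH, the nuclei where they were high. By the limma F-test over the 4 nuclei, 4 of the 6 passed, those of Grp, Grpr, Nmbr, and Brs3, against 8.34% of all probes tested. Neither Nmb probe passed. The call of Grp was lost without any 1 of the Arc, VMH, and DMH arrays (adjusted p = 0.0744 to 0.119), and that of Brs3 without VMH2 (0.0526), whereas those of Grpr and Nmbr held in every fit without 1 array. Of the 48 member spots on the 8 arrays, 33 were well above background and 15 were not, and 0 were marked as outliers by the software. The first Nmb probe was well above background on all 8 arrays. Of the receptors, both arrays of the Arc, DMH, and LH measured Grpr and Brs3 above background, and both arrays of the VMH measured Nmbr.

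**Figure D1:**
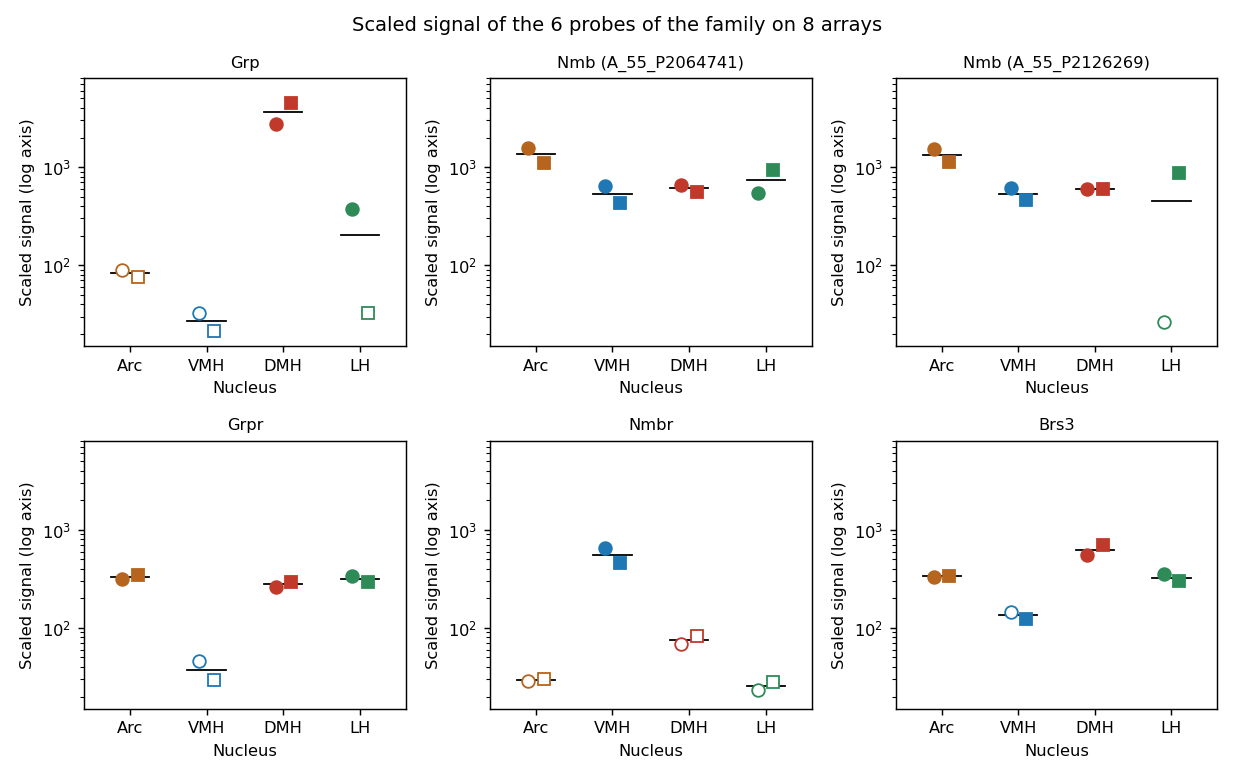
Scaled signal (log axis) of the 6 probes in each nucleus, with circles for replicate 1, squares for replicate 2, filled symbols for arrays on which the probe was well above background, open symbols for the others, and a bar at the mean of the 2 arrays. Grp stood at 2773 and 4548 in the DMH, Nmbr at 652 and 460 in the VMH, and Grpr was below background only in the VMH.

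Grp, the gene of gastrin-releasing peptide, was highest in the DMH. Its scaled signal was 2773 on DMH1 and 4548 on DMH2, with a mean of 3661 ± 1255 (SD, n = 2). It was 376 on LH1 and 32.8 on LH2, 90.3 on Arc1 and 76.3 on Arc2, and 32.6 on VMH1 and 21.1 on VMH2. Only the DMH arrays and LH1 were well above background, and every DMH array lay above every array of the other nuclei. Grp belongs to the DMH-enriched genes that the study selected on these same arrays, so that its rank in the DMH is a description and not independent evidence.

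The Grp mean of the DMH was 17.9 times that of the LH, the next highest nucleus, and so above the 10-fold minimum by which enrichment was defined. This ratio rested on the LH pair, in which LH2 was not well above background. It was 9.74 without LH2, 43.9 without LH1, and 8.37 with the normexp background correction. On the log2 scale, Grp was higher in the DMH than in the VMH by 7.08 (SE 0.99), which passed the limma test with an adjusted p of 0.0181. Because neither VMH array measured Grp, the ratio is only bounded, at least 34.2-fold, taking for each dim array the lowest signal that the software marked as well above background there. Such bounds are approximate, since an unmarked probe can exceed that signal, as Brs3 did on VMH1 (147 against 122). The difference from the Arc was 5.42 (SE 0.99, limma adjusted p = 0.0629), again with neither Arc array above background and a bound of at least 31.4-fold. It passed the threshold in 8 of the 20 alternatives listed below and not in 12, and it was 5.06 to 5.78 over the fits without 1 array. The difference from the LH was 5.0 (SE 0.99, limma adjusted p = 0.0813).

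The call between the DMH and VMH was lost when Arc1, Arc2, VMH1, VMH2, DMH1, or DMH2 was left out, with limma adjusted p-values up to 0.121, and it held without either LH array, with adjusted p-values down to 0.000461. The log2 difference between the DMH and LH was 6.76 without LH1 and 3.24 without LH2, and it passed the threshold in both cases. In these fits the LH is 1 array, which is assumed to vary like the other nuclei, so that the difference between LH1 and LH2 no longer counts, and the 6.76 is set against LH2, which was below background. Between LH1 and LH2, Grp differed in the same direction as the DMH markers Npvf (406 and 29.0), Prdm13 (140 and 27.8), and Skor1 (162 and 64.7), and less so Gpr50 (235 and 207). The sum of these markers was higher in the Arc than on LH1, through Gpr50, and Grp was below background there. The part of DMH tissue in the Grp signal of LH1 was not tested.

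Nmb, which encodes neuromedin B, was measured by 2 probes, and the Arc held the highest signals with both. With probe A_55_P2064741, the scaled signal was 1576 on Arc1 and 1112 on Arc2 (mean 1344 ± 328, SD, n = 2). The other nuclei had means of 736 ± 268 in the LH, 607 ± 61.8 in the DMH, and 538 ± 154 in the VMH, and the probe was well above background on all 8 arrays. Each Arc array lay above each of the other 6 arrays, the highest of which was LH2 at 925. Of the markers of tanycytes, ependyma, and astrocytes, those also highest in the Arc were Rax of tanycytes (1738 and 1360, against 28.4 to 120 elsewhere) and Gfap of astrocytes by A_55_P2157250 (3735 and 6337, against 1228 to 3109), and their part in the Nmb signal was not tested. The other markers of these lists were not higher in the Arc throughout. The astrocyte sum was 10695 to 15626 in the Arc and 14341 to 19684 in the LH, Aldh1l1 was lowest in the Arc (3499 and 4151, against 6128 to 11065), and Ccdc153 and Foxj1 overlapped between the nuclei.

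The Arc mean of this Nmb probe was 1.83 times that of the LH. Nmb did not pass the limma F-test (adjusted p = 0.144). The log2 differences from the Arc were -1.33 in the VMH (SE 0.35, limma adjusted p = 0.0784), -1.13 in the DMH (adjusted p = 0.259), and -0.90 in the LH (adjusted p = 0.157). Their 95% intervals, before adjustment for the number of probes, were -2.15 to -0.51, -1.95 to -0.31, and -1.71 to -0.08. The order LH, DMH, VMH below the Arc was within the spread, as the arrays of these 3 nuclei overlapped.

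The second Nmb probe, A_55_P2126269, gave 1516 on Arc1 and 1131 on Arc2, and 459 to 614 on the 4 arrays of the VMH and DMH. On 7 of the 8 arrays its log2 signal differed from that of the first probe by -0.12 to 0.10. The exception was LH1, where the second probe gave 26.5 and was not well above background, while the first gave 546, a log2 difference of -4.37. On LH2 the probes gave 878 and 925. Before background correction, the median pixel signal of the LH1 spot was 172, lower than the 218.5 to 589.5 of the other member spots that were not well above background, and its local background was 77. The software set no outlier mark on this spot, though it marked 364 spots on LH1 against 126 to 161 on the other arrays. Other probes of the lists were also low on LH1 alone of the LH pair, such as Pcsk2 by A_55_P1972963 (250 against 4896 on LH2) and Tek (91.9 against 562).

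**Figure D2:**
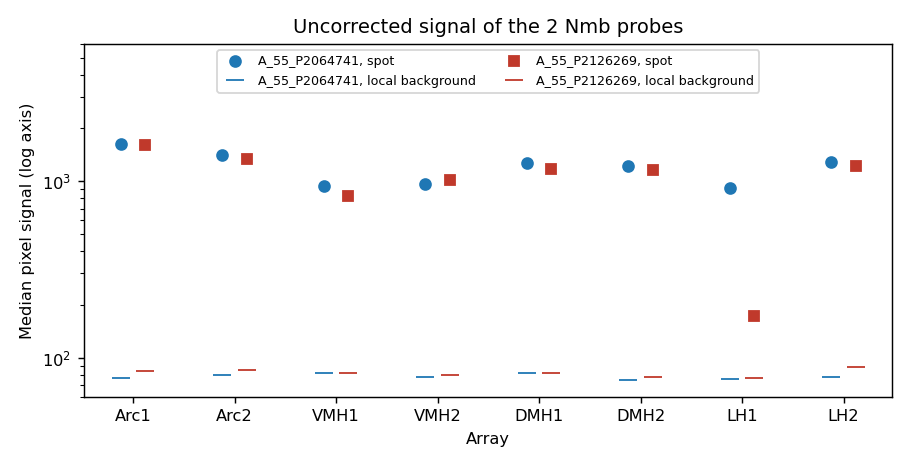
Median pixel signal before background correction (log axis) of the spots of the 2 Nmb probes on each array, with dashes for the local background around each spot. The points of both probes lie close together on 7 arrays, and on LH1 the spot of A_55_P2126269 is at 172.

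The test of the second Nmb probe depended on the LH arrays, which differed from each other. Its limma F-test had an adjusted p of 0.464 with all arrays, 0.0456 without LH1, and 0.000965 without LH2. The log2 difference between the LH and Arc was -3.1 (SE 1.37) with all arrays, -0.58 without LH1, and -5.63 without LH2. Between the VMH and Arc, the log2 difference of the second probe was -1.30 with all arrays (SE 1.37, limma adjusted p = 0.685). Over the fits without 1 array, it went from -1.51 to -1.09. That of the first probe, which did not pass with all arrays either, went from -1.63 to -1.03. Which of the probes gives the Nmb level of LH1 was not tested.

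Among the receptors, Nmbr and Grpr separated the VMH from the other nuclei, in opposite directions. Nmbr was well above background in the VMH alone, and Grpr in every nucleus but the VMH. By the limma F-test, Nmbr was the probe of rank 48 and Grpr that of rank 150 among all 28896. Nmbr was tested only because it was measured in the VMH, so that its rank is a description. The promoters of Nmbr and Grpr are shown because these probes had the highest F-test ranks of the family. The sequences are from RefSeq (GRCm38.p6), 250 bases before to 50 bases after the transcription start, 5′ to 3′ on the strand of the gene, and capitals mark the motifs searched for below. The Nmbr promoter lies at chr10:14759697-14759996 on the plus strand, within the annotated span of the gene, which begins upstream of this start, and the Grpr promoter at chrX:163549687-163549986 on the minus strand.
Nmbr: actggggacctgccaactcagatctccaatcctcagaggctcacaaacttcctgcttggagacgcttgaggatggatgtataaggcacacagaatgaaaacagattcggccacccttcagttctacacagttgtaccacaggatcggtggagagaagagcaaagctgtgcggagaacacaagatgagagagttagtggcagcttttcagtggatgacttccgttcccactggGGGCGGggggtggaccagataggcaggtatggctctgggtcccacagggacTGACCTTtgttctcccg
Grpr: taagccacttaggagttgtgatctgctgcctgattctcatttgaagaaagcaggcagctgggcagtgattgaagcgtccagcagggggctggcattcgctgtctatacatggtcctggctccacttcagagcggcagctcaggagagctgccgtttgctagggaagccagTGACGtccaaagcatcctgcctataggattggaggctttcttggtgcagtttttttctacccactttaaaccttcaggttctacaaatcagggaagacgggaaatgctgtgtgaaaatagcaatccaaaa

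The promoter table held 4 of the 5 genes, all but Grp, and was searched on both strands for 5 short motifs. The GC box GGGCGG stood at -18 from the start of Nmbr, and 35.7% of the 32851 promoters in the table held it. The Nmbr promoter also held AAGGTCA, the sequence bound by NR5A1 and related nuclear receptors, on the opposite strand at 34 after the start, and 4.72% of all promoters did. NR5A1 is a factor that marks the VMH. The Grpr promoter held TGACG, the core of the cyclic AMP response element, at -80, and 20.8% of all promoters did. The Nmb promoter held GGGCGG at 3 places, -64, -50, and -37. TATAAA, the TATA box, and CAAGTG, which NKX2-1 can bind, were found in none of the 4 promoters and in 13.6% of all, each. The Brs3 promoter held none of the 5 motifs. No hit overlapped another, and a match of letters is a description and not a binding site.

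The scaled signal of Nmbr was 652 on VMH1 and 460 on VMH2 (mean 556 ± 136, SD, n = 2). It was 67.8 and 83.0 on the DMH arrays, 28.6 and 30.4 on the Arc arrays, and 23.5 and 27.8 on the LH arrays. All 6 of these were not well above background, so that the VMH did not overlap with any other nucleus and was the only nucleus in which the NMB receptor was measured.

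Because the other nuclei were below background, the data give only approximate lower bounds for the ratio of the VMH to them. Nmbr was higher in the VMH than in the Arc by a log2 difference of 4.22 (SE 0.25, limma adjusted p = 0.000557), with a bound of at least 4.84-fold. It was lower in the LH than in the VMH by -4.42 (limma adjusted p = 0.000486, at least 5.35-fold). The DMH was lower by -2.87 (limma adjusted p = 0.00321, at least 5.85-fold). These 3 calls held in every fit without 1 array. They are a description, since Nmbr was tested through the VMH alone. The SE includes readings below background, whose agreement is not a measured spread.

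Between the DMH and the LH, the log2 difference of Nmbr was 1.55 with a limma adjusted p of 0.0468. Both nuclei were below background, so no ratio is given. The difference became -0.13 when dim signals were raised to the lowest measured one, and 7 of the 8 fits without 1 array did not pass the threshold, all but that without LH2. The Nmbr signals of the Arc, DMH, and LH therefore have no order that was measured.

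Grpr had the reverse distribution. Its scaled signal was 316 and 349 on the Arc arrays, 342 and 293 on the LH arrays, and 262 and 294 on the DMH arrays. On VMH1 and VMH2 it was 45.5 and 29.5, not well above background. The 6 arrays of the Arc, LH, and DMH lay within a narrow band, above both VMH arrays.

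Grpr was lower in the VMH than in the Arc by -3.18 on the log2 scale (SE 0.26, limma adjusted p = 0.00145), a ratio of at least 3.20-fold. It was higher in the LH than in the VMH by 3.11 (limma adjusted p = 0.00236, at least 3.04-fold), and higher in the DMH than in the VMH by 2.92 (limma adjusted p = 0.00347, at least 2.67-fold). All 3 calls held in every fit without 1 array. No pair among the Arc, LH, and DMH passed the test, although both DMH arrays lay below both Arc arrays, while the LH overlapped with each. The log2 difference of Grpr was -0.07 for the LH minus the Arc (95% interval -0.68 to 0.54), -0.26 for the DMH minus the Arc (-0.87 to 0.35), and -0.19 for the DMH minus the LH (-0.80 to 0.42), and these 3 changed sign without scaling. The Arc mean was 1.05 times that of the LH, and the arrays of these 2 nuclei overlapped.

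Brs3, the orphan receptor of the family, was highest in the DMH and lowest in the VMH. The scaled signal was 549 on DMH1 and 699 on DMH2 (mean 624 ± 106, SD, n = 2). It was 330 and 341 on the Arc arrays, 351 and 297 on the LH arrays, and 147 and 124 on the VMH arrays. Both DMH arrays lay above all others and both VMH arrays below all others, whereas the Arc and LH overlapped. Brs3 was well above background on 7 of 8 arrays, all but VMH1.

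Brs3 was higher in the DMH than in the VMH by 2.20 on the log2 scale (SE 0.22, limma adjusted p = 0.00562), a call that was lost without VMH2 (adjusted p = 0.0521). It was lower in the VMH than in the Arc by -1.32 (limma adjusted p = 0.0189) and higher in the LH than in the VMH by 1.26 (limma adjusted p = 0.0249). The call between the VMH and Arc was lost without Arc1, Arc2, VMH1, or VMH2. The call between the LH and VMH held only without LH2 or DMH1 among the fits without 1 array. Both calls were lost without scaling. The call between the LH and VMH was also lost with no filter on dim probes and in a fit of only these nuclei.

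The DMH mean of Brs3 was 1.86 times that of the Arc. The log2 difference of the DMH was 0.88 from the Arc (95% interval 0.36 to 1.41, limma adjusted p = 0.154) and 0.94 from the LH (0.41 to 1.46, adjusted p = 0.132), and neither passed after adjustment over all probes. Between the LH and Arc it was -0.05 (-0.58 to 0.47).

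**Figure D3:**
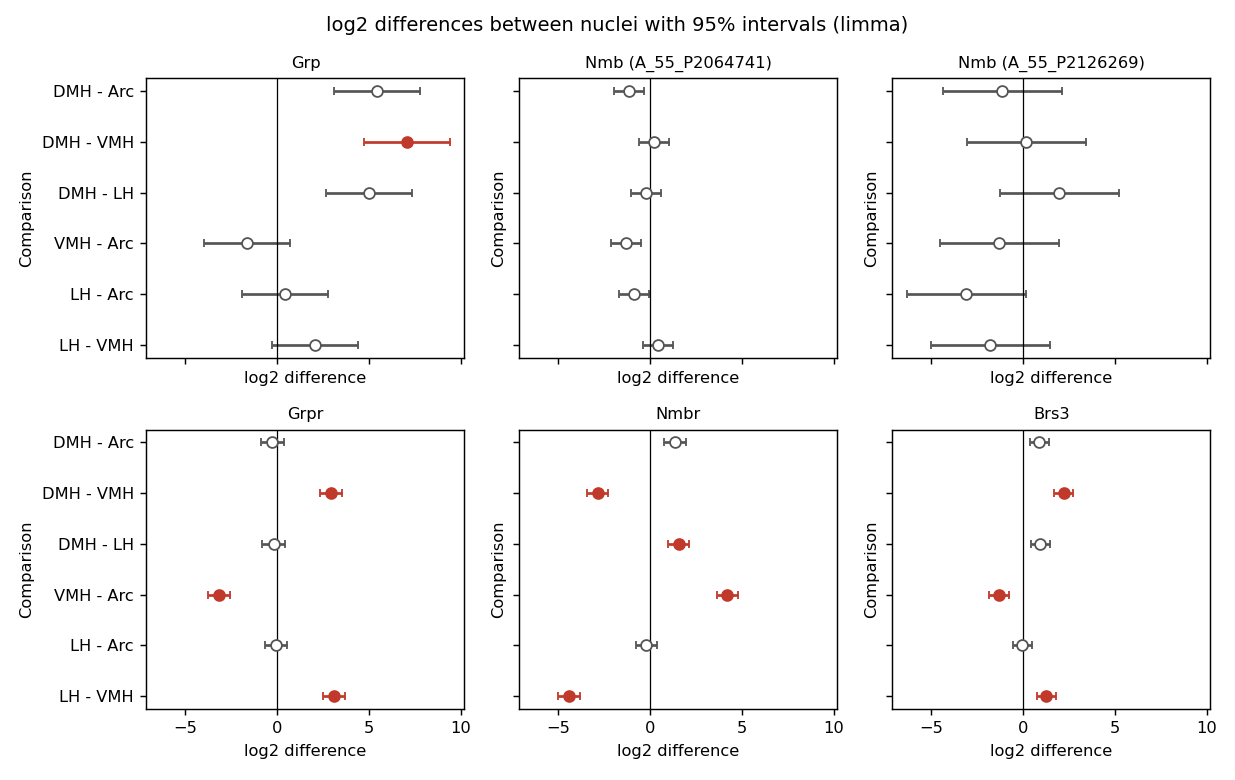
Log2 difference of each probe in the 6 comparisons of 2 nuclei, the first minus the second, with 95% intervals from limma, and filled red points where the adjusted p was under 0.05. Of the 11 red points, 9 are comparisons with the VMH other than that of Grp, 1 is Grp between the DMH and VMH, and 1 is Nmbr between the DMH and LH, both below background, and differences from a nucleus below background are fitted values for which the text gives bounds.

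Comparison by comparison, the family was called most often where the VMH was one of the nuclei. Between the DMH and VMH, 4 of 6 probes passed (Grp, Grpr, and Brs3 higher in the DMH, Nmbr lower), against 2.04% of all probes tested. Between the VMH and Arc, 3 of 6 passed (Nmbr higher in the VMH, Grpr and Brs3 lower), against 5.92% of all. Between the LH and VMH, 3 of 6 passed (Grpr and Brs3 higher in the LH, Nmbr lower), against 5.28% of all.

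In the other 3 comparisons the counts were 0 or 1. Between the DMH and LH, 1 probe passed, that of Nmbr with both nuclei below background, against 0.924% of all probes. Between the DMH and Arc, 0 passed by limma against 1.26% of all. Between the LH and Arc, 0 passed by limma against 9.34% of all, the highest share of the 6 comparisons. The general multi-group test of the methods, adjusted in the same way, gave 0 in each of the 6 comparisons, those with the VMH included, and called 0 to 30 of all 28896 probes per comparison. The comparisons share arrays and are not independent of each other.

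The slide has 2 rows, which hold replicates 1 and 2 of the nuclei, respectively, so that each row gives every difference once. With dim signals bounded as above, Grp was higher in the DMH than in the VMH by at least 22.7-fold in row 1 and at least 51.5-fold in row 2. Nmbr was higher in the VMH than in the Arc by at least 6.49-fold and at least 3.61-fold. Grpr was higher in the Arc than in the VMH by at least 2.59-fold and at least 3.95-fold. Brs3 was higher in the DMH than in the VMH by at least 3.74-fold in row 1, where VMH1 was below background, and by 5.63-fold in row 2. The LH exceeded the Arc in Grp by at least 3.74-fold in row 1, whereas both were below background in row 2. Between the DMH and LH, the log2 difference of Grp was 2.88 in row 1, where both arrays measured it. In row 2 it was 7.12, against LH2, which was below background.

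Between the highest and lowest nucleus mean, the log2 range was 2.20 for Brs3 and 1.33 for the first Nmb probe, whose signals were measured in all nuclei, for Brs3 on 1 of the 2 VMH arrays. Over all probes tested, with dim signals at their value, the median range was 0.65 and the 90th percentile 1.74. For Grp, Nmbr, and Grpr the lowest nucleus was below background, and the range is bounded only by the ratios given above. The range of the second Nmb probe has the LH, with LH1 below background, as its lowest nucleus.

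For each gene, the 3 other genes with the most similar profile were found by the Pearson correlation of log2 signals over the 8 arrays. The points share arrays and scaling, and the correlation is a description over 8 points from 4 nuclei. It includes signals below background. Of the genes named next, Tdg, Antxr2, and Megf11 were well above background on only 2 arrays. Prdm13, Skor1, and Prph were so on 3. The profile of Grp was most like those of Prdm13 (r = 0.98), Tdg (0.98), and Skor1 (0.98). Prdm13, a zinc finger regulator, and Skor1, a transcriptional corepressor, also belong to the DMH-enriched genes of the study. Prdm13 had a mean of 1664 in the DMH, against 84.0 for the LH, 56.0 for the Arc, and 26.4 for the VMH.

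The profile of Nmb, by its brighter probe, was most like those of Antxr2 (r = 0.98), Serpinh1 (0.97), and S100a6 (0.96). S100a6, a small calcium-binding protein, had a mean of 3199 in the Arc and 665 to 1101 elsewhere. Serpinh1, a collagen chaperone, had 2388 in the Arc and 1257 to 1732 elsewhere and, like Nmb, did not pass the F-test (limma adjusted p = 0.232).

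Grpr was most like Gsx1 (r = 0.995), Cidea (0.994), and Gad1 (0.992). Gad1 encodes an enzyme of GABA synthesis and Gsx1 a homeobox factor. The mean of Gad1 was 7343 in the Arc, 7952 in the DMH, 9577 in the LH, and 319 in the VMH (limma F-test, adjusted p = 0.000455). Gsx1 went from 754 to 1189 in these 3 nuclei to 43.5 in the VMH. The low signals of Grpr in the VMH stood beside low signals of this marker of GABAergic neurons, whose part in the Grpr signal was not tested.

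Nmbr was most like Myh7 (r = 0.995), Megf11 (0.990), and Slc17a5 (0.987). Myh7, a myosin heavy chain known from cardiac muscle, had a mean of 18234 in the VMH and 2252 to 4505 elsewhere. Megf11, a transmembrane protein with EGF-like domains, had 493 in the VMH and 32.1 to 70.8 elsewhere. Brs3 was most like Prlhr (r = 0.987), the receptor of prolactin-releasing peptide, Prph (0.986), which encodes the intermediate filament peripherin, and Pld6 (0.973). Prlhr had a mean of 482 in the DMH, against 178 for the Arc, 128 for the LH, and 36.7 for the VMH (limma F-test, adjusted p = 0.00295).

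**Figure D4:**
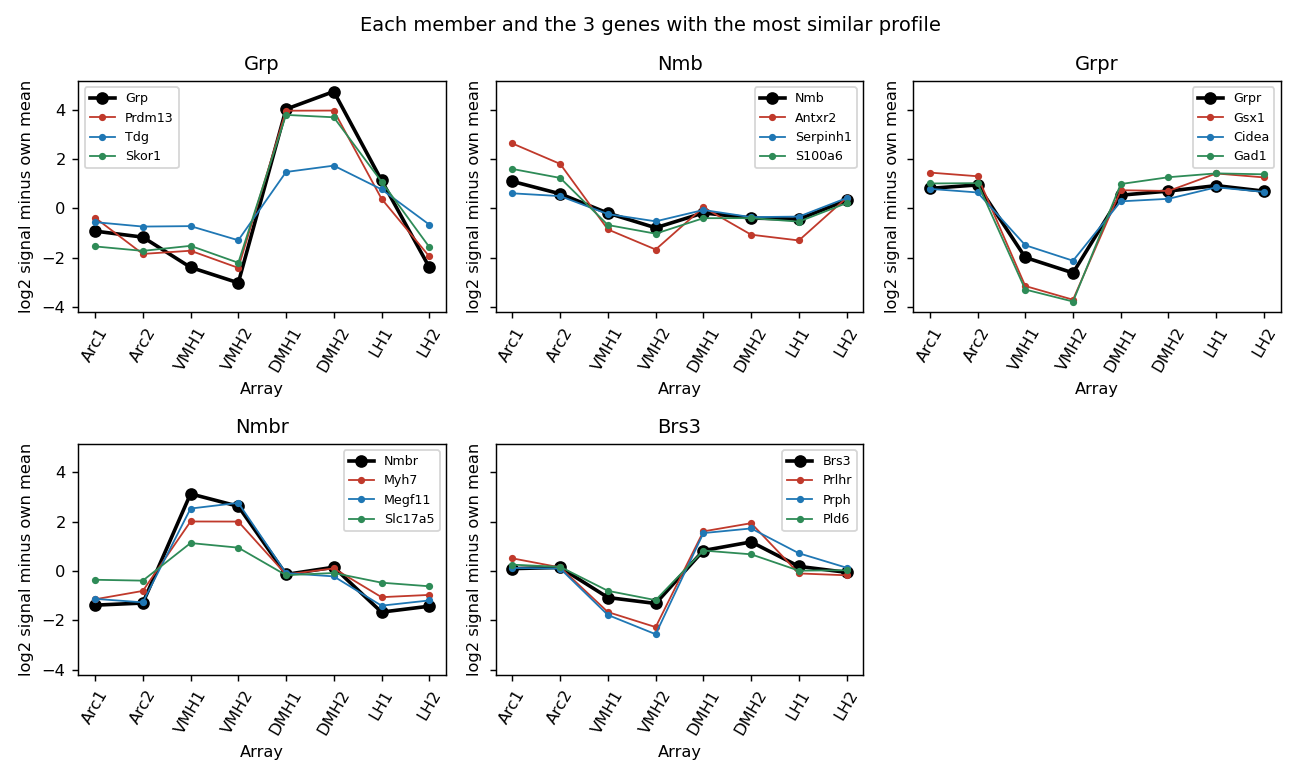
Log2 scaled signal minus the mean of the gene over the 8 arrays, for each gene of the family (black, Nmb by probe A_55_P2064741) and the 3 genes with the highest Pearson correlation with it. The Grpr panel falls at VMH1 and VMH2 together with Gsx1, Cidea, and Gad1, and the Nmbr panel rises there with Myh7, Megf11, and Slc17a5.

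Bombesin-like peptides are cut from precursors and amidated before release. Of 9 tested probes for the genes of peptide maturation and breakdown (Pcsk1, Pcsk2, Cpe, Pam, Scg5, and Pcsk1n), 2 passed the F-test, which is 22.2%, beside the 8.34% of all probes. Mme, which encodes the peptidase neprilysin and was the only gene of breakdown on the list, was too dim to be tested. The median range of the list was 0.58, against 0.65 over all probes. Pcsk1, a prohormone convertase, was 2839 and 3048 on the LH arrays, 1543 and 1830 in the Arc, 1308 and 1222 in the DMH, and 1004 and 990 in the VMH (limma adjusted p = 0.0141). Pcsk2, the other main convertase, had means of 23474 in the VMH, 22871 in the LH, 15501 in the DMH, and 10197 in the Arc with the probe that passed (adjusted p = 0.0495). The other Pcsk2 probe did not pass (adjusted p = 0.481) and was low in the LH through LH1. Of the list, 0 probes passed without scaling, without VMH1, and without VMH2, and 1 passed without any 1 of the Arc and DMH arrays. Pam, the amidating enzyme, had means of 6897 to 10591 in the 4 nuclei and did not pass (adjusted p = 0.673).

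The genes of Gq signaling downstream of the receptors numbered 20, of which 18 with 23 probes were tested. Of these probes, 5 passed the F-test, which is 21.7%, beside the 8.34% of all probes. The count was 0 without Arc1 or Arc2, 2 without VMH1 or VMH2, and 9 without LH1. The median range of the list was 0.89, against 0.65 over all probes. Plcb1 and Plcb4, phospholipases C of the Gq pathway, and Arrb1, a beta-arrestin, had the largest ranges among them. Plcb1 was 4974 and 3880 on the VMH arrays, 4038 and 4522 in the LH, 2982 and 2934 in the DMH, and 1287 and 1155 in the Arc (limma adjusted p = 0.00797). Plcb4 was 3780 and 4798 on the VMH arrays and 1147 and 1464 on the Arc arrays (limma adjusted p = 0.0214). Arrb1 was 34989 and 31480 on the LH arrays and 10951 and 12141 on the Arc arrays (limma adjusted p = 0.0126). The Arc was the lowest nucleus for each of these 3 genes. The other probes that passed were those of Itpr1, an IP3 receptor, and Prkcb, a protein kinase C, which are named here after their values were seen. Itpr1 had a mean of 25650 in the VMH and 8895 to 10033 elsewhere (limma adjusted p = 0.012). Prkcb was 23114 and 17686 on the VMH arrays and 7173 and 7775 on the Arc arrays (limma adjusted p = 0.0307). The other tested probes of Plcb1, Plcb4, and Prkcb did not pass the F-test (limma adjusted p = 0.0509, 0.0546, and 0.0564), though each had its lowest mean in the Arc. Gnaq, the Gq alpha subunit, and Grk2, a receptor kinase, did not pass (adjusted p = 0.646 and 0.318).

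By comparison, 8 of the 23 signaling probes passed between the VMH and Arc, all with the higher signal in the VMH, against 5.92% of all probes, and the median log2 difference of the list was 0.71 against -0.01 over all probes. Between the LH and Arc, 5 passed, all higher in the LH, against 9.34% of all probes, with a median of 0.52 against -0.05. Neuronal markers (Snap25, Syt1, Tubb3, and Rbfox3) moved alongside, with a sum of 121638 to 121925 in the Arc, 152475 to 169412 in the VMH, and 141795 to 164356 in the LH, and the part of neurons in the signaling list was not tested. Oligodendrocyte markers differed in the same direction, with a sum of 10926 to 17807 in the Arc, 30484 to 37412 in the VMH, and 97244 to 102585 in the LH, and their part was not tested either. By gene, the log2 difference between the VMH and Arc was 1.39 to 1.88 for the 3 probes of Rbfox3, all of which passed, among them A_55_P1993777 at 1.88 (limma adjusted p = 0.00795). It was 0.94 for Syt1 (adjusted p = 0.0639), 0.33 for Snap25, and 0.25 for Tubb3, which did not pass. The 8 signaling probes that passed had differences of 1.32 to 1.85, and the neuronal sum is carried by Snap25 and Tubb3. Summed over the list, the signals were 162049 to 180445 in the VMH, 146297 to 146834 in the LH, 126888 to 133503 in the DMH, and 102957 to 108881 in the Arc.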

How the data were processed

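RNA of the microdissected nuclei was amplified with the WTA2 kit, labeled with the Kreatech ULS kit, and hybridized to Agilent mouse 8x60K arrays. The authors deposited spot intensities from Agilent Feature Extraction (version 11.5.1.1 in the methods and processing notes, another in the file headers), with background subtracted and no scaling between arrays. The dye is Cy3 in the labels and Cy5 in the methods, and the deposited channel is the red one, that of Cy5.

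Outlier spots were dropped, the spots of a probe averaged, and the values of an array scaled by its 75th percentile (815 on Arc1 to 1239 on VMH2, with the divisors rescaled to a geometric mean of 1) before log2. In total, 28896 probes that both arrays of some nucleus measured well above background were tested with limma 3.58.1 in R 4.3.3, in one fit of 8 arrays with 4 residual degrees of freedom. Without scaling, the median log2 difference of all probes was 0.46 between the DMH and Arc and 0.33 between the DMH and LH. Lower bounds raise the dim signals of a nucleus to the lowest signal well above background of each array. They are approximate, since unmarked probes can exceed that signal. Intervals are 95% intervals of limma. The number of arrays limits the precision.

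Of 28390 probes with a RefSeq accession, 26762 (94.3%) were named through the mouse annotation GRCm38.p6. The family, the lists of maturation and signaling genes, and the tests were chosen with earlier results of these data known. The genes named are the 5 of the family, for the brightest probe of each the 3 genes with the highest correlation, from each list at most 3 probes past the F-test with the largest range, and Grk2, Pam, and Gnaq. Itpr1 and Prkcb, which also passed, and the marker genes given beside results are named outside this rule. Alternatives were no scaling, scaling on the probes measured on all arrays, quantile normalization, normexp on the median signals with an offset of 50, the deposited table, no filter on dim probes, a filter requiring all 8 arrays, keeping outlier spots, raising dim signals, a replicate block, leaving out each array, trended and robust moderation, geometric means for the ratios, the methods' one-way ANOVA with Tukey-Kramer comparisons, and a fit of only the 2 nuclei compared. The script was tested on simulated data.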

Additional observations from a re-analysis of the deposited data

How the results depend on the processing

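The 36 log2 differences of the 6 probes had 726 values under the alternatives, of which 633 kept the direction and the side of the threshold, 44 fell behind it, 32 passed it, and 17 turned in sign, 0 of them with an adjusted p under 0.05. The 6 calls of Grpr and Nmbr against the VMH were lost only with the ANOVA and Tukey-Kramer test. Over the fits without 1 array, the count of family probes called ranged from 2 to 5 by the F-test, 0 to 2 between the DMH and Arc, 2 to 4 between the DMH and VMH, 0 to 3 between the DMH and LH, 2 to 6 between the VMH and Arc, 0 to 2 between the LH and Arc, and 2 to 5 between the LH and VMH. The lists ranged from 0 to 3 (maturation) and 0 to 9 (signaling), and normexp gave 9 for signaling.

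With a filter on all 8 arrays only 1 of the 6 probes was tested, and the counts were 0 by the F-test, 0 between the DMH and VMH, DMH and LH, and LH and VMH, and 1 between the VMH and Arc. The methods' tests gave 2 by ANOVA and 0 in each of the 6 comparisons. Unadjusted, they gave 4 by ANOVA, 4 between the DMH and VMH, and 3 between the VMH and Arc and between the LH and VMH. The unadjusted count was also 3 between the DMH and Arc, 2 between the DMH and LH, and 0 between the LH and Arc. Over all 28896 probes, ANOVA called 529 adjusted and 6262 unadjusted, and the comparisons 0 to 30 adjusted and 1483 to 3762 unadjusted. Between the DMH and Arc, the count was 2 without scaling, 2 with quantile normalization, 2 in a fit of only these nuclei, and 1 each with normexp, dim signals raised, and trended moderation. Between the DMH and LH it was 0 with no filter, trended moderation, or only these nuclei, and between the VMH and Arc it was 5 in a fit of only these nuclei. Without scaling 0 maturation probes passed.

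The replicate numbers were not taken to pair the samples, since deviations of same-numbered arrays correlated from -0.03 to 0.26 over the 6 pairs of nuclei. With a replicate block the count was 0 between the DMH and LH, since the call of Nmbr was lost (adjusted p = 0.0793), and 1 for maturation, and no other call of the family changed.

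Signs turned as follows, with the range over the fits without 1 array where such a fit turned the sign. Without scaling, the log2 difference was 0.090 for Nmb (A_55_P2064741) between the DMH and LH, 0.22 for Grpr between the DMH and Arc, 0.13 between the DMH and LH, and 0.088 between the LH and Arc, and 0.10 for Brs3 between the LH and Arc. Quantile normalization gave 0.086 for Grpr and 0.10 for Brs3 between the LH and Arc. With dim signals raised, Nmbr gave -0.27 between the DMH and Arc and -0.13 between the DMH and LH. Without LH1 and LH2, the difference of Grp between the LH and Arc was -1.34 and 2.18, those of Nmb (A_55_P2126269) -0.55 and 4.50 between the DMH and LH and 0.73 and -4.32 between the LH and VMH, that of Nmb (A_55_P2064741) -0.61 and 0.15 between the DMH and LH, and those between the LH and Arc -0.18 and 0.042 for Grpr and -0.17 and 0.066 for Brs3. Without VMH1 and VMH2, the differences between the DMH and VMH were 0.50 and -0.095 for Nmb (A_55_P2064741) and 0.38 and -0.037 for Nmb (A_55_P2126269). The ratio of Grpr in the Arc to the next nucleus was 0.859 without scaling and 0.944 with quantile normalization, and over the fits without 1 array it went from 0.973 without LH2 to 1.14 without LH1. The cause of these changes was not tested.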
